A study of Homo sapiens with 9 samples.

Results

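The expression of 10 genes of the YAP and TEAD pathway was examined in human embryonic kidney HEK293 cells carrying different forms of the kinase MEK1: CTGF, CYR61, ANKRD1, AMOTL1, AMOTL2, AJUBA, LATS2, AXL, YAP1 and TEAD1. The genes were taken by name from the probe annotation of the array, where 11 of 50598 non-control probes, and 10 of 36618 gene names, belonged to them. AMOTL1 had 2 probes, and each other gene had 1. CTGF and CYR61 also go by the names CCN2 and CCN1. All 10 genes were among the 19236 genes tested, meaning that a probe exceeded background clearly on each of the 3 arrays of some line. ANKRD1 passed through K57N cells alone and the other 9 genes in all 3 lines.

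The 3 stable HEK293 lines expressed HA-tagged MEK1 as the wild type (WT), the RASopathy mutant F53S or the cancer mutant K57N. Endogenous MEK1 was present in all of them, and RNA was taken under steady-state conditions from 3 independent experiments per line. Each MEK1 form was carried by 1 line, made by transfection and puromycin selection, so the MEK1 form and any other difference between the lines cannot be told apart. Total RNA was hybridized to 1-colour 60-base oligonucleotide arrays, 1 array per experiment, and all levels below are log2 signals relative to the 75th percentile of the same array. A level is comparable between arrays for a given probe, and not between probes.

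YAP1 is a transcriptional coactivator that has no DNA-binding domain of its own and reaches its target genes through the TEAD transcription factors. The Hippo kinase cascade, in which MST1/2 activate LATS1/2, phosphorylates YAP1 and its paralogue TAZ and keeps them out of the nucleus. Several targets act back on the pathway, among them LATS2 and the angiomotin-like proteins, so the gene set holds a coactivator, a DNA-binding partner, outputs and feedback regulators. In HEK293 cells YAP1 activity is known to respond to serum, cell density and attachment.

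To show where a TEAD site could lie, the RefSeq promoter windows of the genes (GRCh38.p14, 250 bases before to 50 after each start) were searched for the core TEAD motif CATTCC on both strands, GGAATG being its reverse complement. Of 35116 such windows, 14.03% held the motif, 1.373% held it at least 2 times and 0.128% (45 windows) at least 3 times. A window was found for 8 of the 10 genes, all but CYR61 and TEAD1, and the motif stood in at least 1 window of 7 of them, with AMOTL1 as the exception. CTGF had 3 matches and ANKRD1 had 2, while AMOTL2, AJUBA, LATS2, AXL and YAP1 had 1 each. The 250 bases before the start of 3 genes are shown 5′ to 3′ in the direction of transcription, with CATTCC or GGAATG in capitals. They are the genes on which the results below turn: CTGF (chr6:131951373-131951622, minus strand), ANKRD1 (chr10:90921088-90921337, minus strand) and the second of 2 starts of AJUBA (chr14:22976843-22977092, minus strand).
CTGF: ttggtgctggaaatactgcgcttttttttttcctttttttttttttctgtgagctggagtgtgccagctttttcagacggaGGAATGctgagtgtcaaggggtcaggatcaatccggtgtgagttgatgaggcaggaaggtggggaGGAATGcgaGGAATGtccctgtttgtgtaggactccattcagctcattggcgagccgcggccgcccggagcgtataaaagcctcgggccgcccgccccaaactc
ANKRD1: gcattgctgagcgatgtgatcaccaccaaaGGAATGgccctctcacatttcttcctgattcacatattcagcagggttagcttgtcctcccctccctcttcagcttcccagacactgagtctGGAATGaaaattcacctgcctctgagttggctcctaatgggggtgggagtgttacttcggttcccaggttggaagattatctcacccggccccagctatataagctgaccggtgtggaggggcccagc
AJUBA: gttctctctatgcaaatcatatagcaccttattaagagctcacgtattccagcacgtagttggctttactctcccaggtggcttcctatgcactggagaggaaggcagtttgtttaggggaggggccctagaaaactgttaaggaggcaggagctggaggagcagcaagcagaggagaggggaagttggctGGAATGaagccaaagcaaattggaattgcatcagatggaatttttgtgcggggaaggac

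The 3 CTGF matches began 169, 104 and 95 bases before the start, and the latter 2 were separated by a few bases. The ANKRD1 matches began 220 and 128 bases before the start. ANKRD1 was also the only gene of the set with an AP-1 motif, TGANTCA, in its window, which began 195 bases before the start and which 7.71% of all windows held. AJUBA had 1 match, 59 bases before the start, whereas the window of its other start held none. A longer form, CATTCCA, stood in 4.18% of all windows and in windows of 4 of the 8 genes. These matches describe the sequence and are not evidence of binding.

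The arrays were not alike in brightness. The first replicate of each line was hybridized on slide 1 and the other 2 on slide 2, so the slide and the experiment cannot be told apart. Processed signals had 75th percentiles of 245 to 376 on slide 1, with the K57N array the brightest, and 695 to 821 on slide 2. Between 23751 and 26145 probes were well above background on slide 1 and between 27130 and 29353 on slide 2. Kidney and neuronal markers known from HEK293 cells, namely PAX2, LHX1, NEFL and VIM, stood clearly above background throughout, and NEFM did not on every array. Of 6 fibroblast markers 1 was (COL1A1), COL1A2, DCN and PDGFRB were at background on every array, and the summed signal of that list was 0.847 to 1.42 times the 75th percentile in WT cells, 0.794 to 1.14 in F53S cells and 0.456 to 0.514 in K57N cells. Of 4 blood markers HBB was at background on every array, and the summed signal of that list was 0.732 to 1.47, 0.708 to 1.32 and 0.731 to 0.826 in the same order. The part of these signals in the results was not tested. MAP2K1, which encodes MEK1, had levels of 2.36, 2.34 and 2.42 in WT cells, 2.50, 2.39 and 2.46 in F53S cells and 2.92, 2.81 and 2.82 in K57N cells. Whether its probe detects the transgene is not given in the sources used here.

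**Figure D1:**
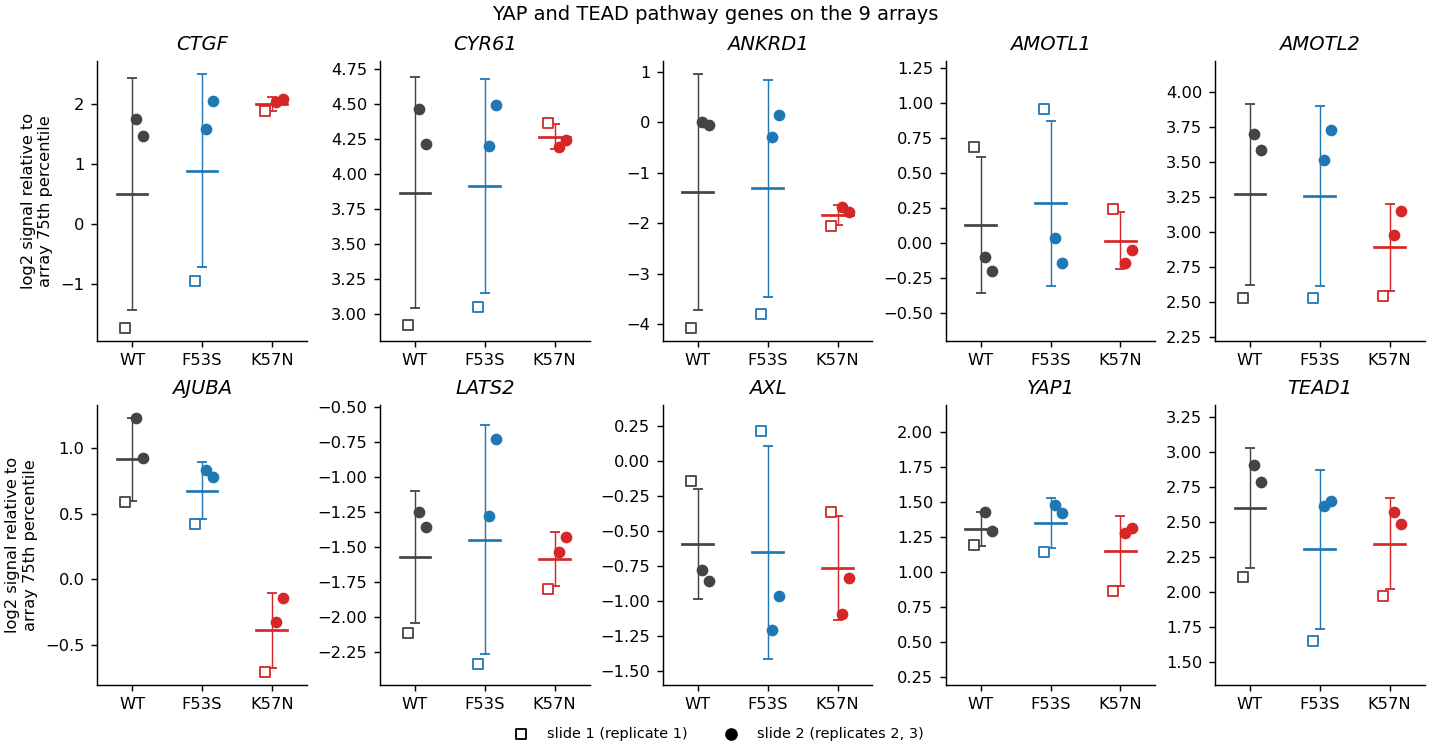
Level of each gene on the 9 arrays. The vertical axes give log2 signal relative to the array's 75th percentile, each panel with its own range of at least 2 units, open squares are slide 1 (replicate 1), filled circles are slide 2 (replicates 2 and 3), and horizontal lines with bars are the mean ± SD of 3 arrays. CTGF, CYR61 and ANKRD1 sat low on slide 1 in WT and F53S cells and close together in K57N cells (for CTGF between 1.87 and 2.09), and AJUBA was lower on all 3 K57N arrays than on any other array.

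Across the 3 arrays per line, AJUBA was the only gene of the 10 that differed in K57N cells from WT cells by limma, and no gene was called higher. A gene was called when its Benjamini-Hochberg adjusted p, over all probes tested, was below 0.05 and its change exceeded 2-fold. The 0 genes called higher and 1 called lower stand beside 1.52% and 0.749% of all 19236 genes tested. The 10 genes had a median of -0.17 on the log2 scale, beside -0.06 over all genes, and 2 of the 10 were positive. CTGF had a point estimate over 2-fold, but its replicates spread too widely for a call.

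AJUBA encodes a LIM-domain scaffold protein that binds LATS kinases and has a role at cell-cell junctions. Its probe lies at chr14:23441247-23441306 (hg19). The levels of AJUBA were 0.59, 1.23 and 0.93 in WT cells, 0.43, 0.83 and 0.78 in F53S cells and -0.70, -0.32 and -0.14 in K57N cells. Every K57N array was below every WT and F53S array, which held for 12.7% of all genes against WT and 10.4% against F53S. Against WT, K57N cells differed by a log2 fold change of -1.30 (SE 0.232, 95% confidence interval -1.83 to -0.77, limma adjusted p = 0.0257). It was -1.29 on slide 1 and -1.31 on slide 2. With slide as a term the adjusted p was 0.00031, and on the 6 arrays of slide 2 alone 0.00523. The call was lost, with adjusted p from 0.0501 to 0.109, when any of WT replicates 2 and 3, F53S replicates 2 and 3 or the 3 K57N replicates was left out, although the log2 fold change stayed between -1.46 and -1.15 in all 9 such fits. It was also lost with normexp background correction (adjusted p = 0.0811), with no filter on dim probes (0.145) and with only these lines in the fit (0.0614).

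Against F53S cells, AJUBA was lower in K57N cells by a log2 fold change of -1.07 (SE 0.232, limma adjusted p = 0.0846), which was not called. With slide as a term the same difference was called (adjusted p = 0.00127), which made AJUBA the only member called there, beside 1.88% higher and 1.11% lower of all genes. F53S and WT cells differed by -0.24 (95% confidence interval -0.77 to 0.29) with overlapping arrays.

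CTGF encodes a secreted matricellular protein and is a commonly used readout of YAP1 activity. Its probe lies at chr6:132270130-132270189 (hg19). CTGF levels were -1.72, 1.75 and 1.47 in WT cells, -0.95, 1.57 and 2.04 in F53S cells and 1.87, 2.03 and 2.09 in K57N cells. The 3 K57N arrays were above all WT arrays (10.2% of all genes were apart in that direction) but overlapped the F53S arrays (8.29% apart). Means ± SD were 0.501 ± 1.93 in WT cells, 0.890 ± 1.61 in F53S cells and 1.998 ± 0.110 in K57N cells (n = 3 arrays each). On the scanner's own scale the CTGF signal rose from 86.3 on the slide 1 array of WT cells to 2750 and 1930 on slide 2, whereas in K57N cells it was 1380 on slide 1 and 3360 and 3390 on slide 2. K57N against WT gave a log2 fold change of 1.497 (SE 1.01, 95% confidence interval -0.82 to 3.81, limma adjusted p = 0.668). With slide as a term the interval was 0.13 to 2.86 and the adjusted p 0.119.

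Behind this average lay a large difference on slide 1 and a small one on slide 2. K57N cells exceeded WT cells by 3.60 on the log2 scale on slide 1 and by 0.45 on slide 2, and they exceeded F53S cells by 2.82 and 0.25. The K57N against WT difference was thus 3.15 larger on slide 1. Slide 1 held 1 array per line, so this difference between the slides has no replicate check on slide 1 and is given as a description.

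CYR61, which encodes a related secreted protein of the same CCN family, showed the same arrangement at smaller size. Its probe lies at chr1:86048953-86049012 (hg19). CYR61 levels were 2.92, 4.46 and 4.21 in WT cells, 3.05, 4.20 and 4.50 in F53S cells and 4.37, 4.19 and 4.24 in K57N cells. The K57N arrays lay within the range of the WT arrays, and the low values were again the slide 1 arrays of WT and F53S cells. K57N against WT gave 0.40 on the log2 scale (SE 0.469, 95% confidence interval -0.67 to 1.47, limma adjusted p = 0.892), made up of 1.45 on slide 1 and -0.12 on slide 2. The difference was thus 1.57 larger on slide 1, again a description that rests on 1 array per line there.

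ANKRD1, which encodes an ankyrin repeat protein best known from heart muscle and is a strong YAP1 target in many cell types, changed direction between the slides. Its probe lies at chr10:92672562-92672621 (hg19). ANKRD1 levels were -4.08, 0.01 and -0.06 in WT cells, -3.79, -0.28 and 0.14 in F53S cells and -2.05, -1.67 and -1.77 in K57N cells. It was not well above background on the slide 1 arrays of WT and F53S cells, and K57N cells were therefore at least 3.52-fold higher than WT and at least 3.27-fold higher than F53S cells there. Since ANKRD1 was tested through K57N cells alone, a K57N value above background on slide 1 was required by the filter, and the higher value there is a description. On slide 2 both K57N arrays were below all WT and F53S arrays, by -1.69 against WT and -1.65 against F53S. Over all 3 arrays, with the values at background as measured, the log2 fold change against WT was -0.45 (95% confidence interval -3.38 to 2.47, limma adjusted p = 0.982). On the 6 arrays of slide 2 alone ANKRD1 was called lower in K57N cells against WT (adjusted p = 0.00425) and against F53S cells (adjusted p = 0.00689). With AJUBA this made 2 members lower and 0 higher there in both comparisons, beside 1.36% lower and 2.43% higher of all genes against WT and 0.702% and 1.78% against F53S.

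The K57N against WT difference of ANKRD1 was larger on slide 1 than on slide 2 by 3.72 with the WT value of slide 1, at background, taken as measured. With each value below its array's lowest signal well above background raised to that floor, a setting added after the data were seen, it was larger by at least 3.51. The filter favoured that direction, and slide 1 held 1 array per line, so no test is given. Over all genes, a line by slide term in limma, added after the data were seen, passed 0.05 with a larger K57N against WT difference on slide 1 for 4.9% and a smaller one for 9.01%, and in F53S against WT for 0.0312% and 0.0572%. It carries no spread of slide 1, and nothing is read from it for the members.

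**Figure D2:**
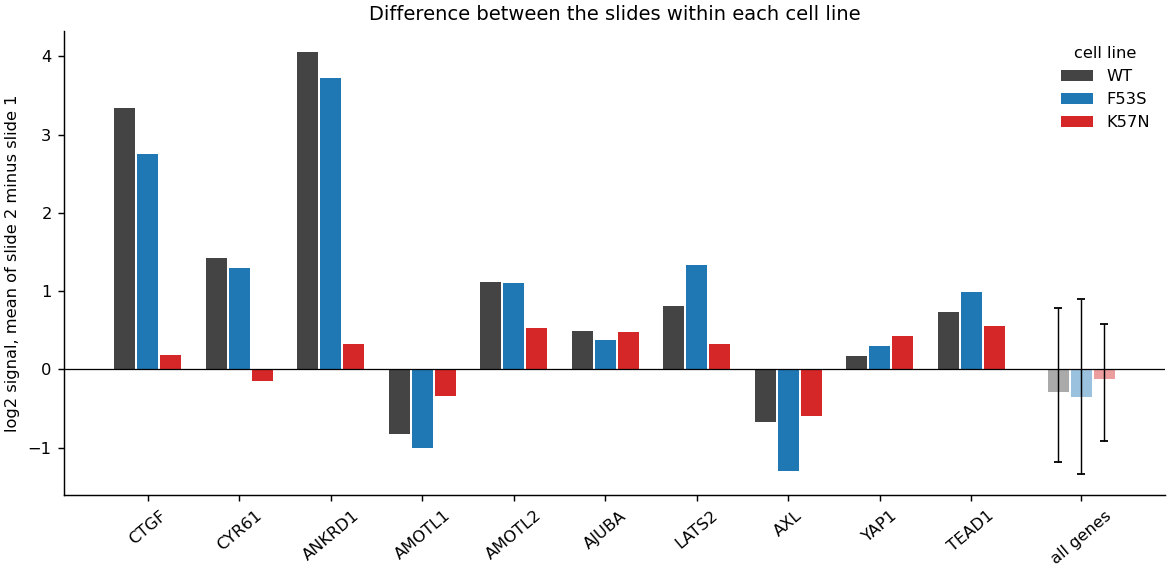
Difference between the slides within each line. Bars give the mean log2 signal of the 2 slide 2 arrays minus the slide 1 array, and the last group gives the median of all 19236 genes with lines from the 10th to the 90th percentile. ANKRD1 was at background on slide 1 in WT and F53S cells, and those bars take the values as measured. The CTGF, CYR61 and ANKRD1 bars are tall in WT and F53S cells (CTGF 3.34 and 2.76) and short in K57N cells (0.19), while AJUBA has bars of like height in the 3 lines (0.49, 0.38 and 0.47).

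The gap between the slides varied from gene to gene and was compared between the lines without a test. In WT cells 4 of the 10 genes (CTGF, CYR61, ANKRD1 and AMOTL2) were more than 2-fold higher on slide 2, beside 6.01% of all genes. In F53S cells LATS2 joined them, making 5 of 10 beside 8.05%, and in K57N cells the count was 0 beside 2.21%, so the share over all genes was also lowest in K57N cells. Not every gene had its smallest gap there, with gaps of 0.17, 0.30 and 0.43 for YAP1 (WT, F53S, K57N) and of 0.49, 0.38 and 0.47 for AJUBA. The gap of the 10 genes ran from -0.83 (AMOTL1) upward in WT cells, from -1.30 (AXL) upward in F53S cells and from -0.60 to 0.56 in K57N cells. The upper ends were those of ANKRD1, which are bounds of at least 3.84 in WT and at least 3.69 in F53S cells, since its slide 1 values there were at background, and CTGF followed with 3.34 and 2.76. Their medians were 0.77, 1.04 and 0.32, beside -0.30, -0.35 and -0.13 over all genes. The slide 1 arrays had 75th percentile signals of 285 in WT cells, 245 in F53S cells and 376 in K57N cells, and the part of brightness in these gaps was not tested.

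AMOTL2 and AMOTL1 encode angiomotin-like scaffolds that bind YAP1 and hold it at junctions and in the cytoplasm. AMOTL2 levels, from a probe at chr3:134074742-134074801 (hg19), were 2.52, 3.70 and 3.58 in WT cells, 2.52, 3.51 and 3.73 in F53S cells and 2.54, 2.98 and 3.15 in K57N cells. The slide 1 arrays were level across the lines, and on slide 2 the K57N arrays were the lowest. Its log2 fold change against WT was -0.38 over all arrays (95% confidence interval -1.31 to 0.55, limma adjusted p = 0.863). On slide 2 alone it was -0.58 (adjusted p = 0.0255), which is below 2-fold and hence was not called.

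AMOTL1 was represented by the probe at chr11:94609844-94609903 (hg19), with levels of 0.68, -0.10 and -0.20 in WT cells, 0.96, 0.03 and -0.14 in F53S cells and 0.24, -0.15 and -0.06 in K57N cells. By this probe slide 1 arrays were higher than slide 2 arrays in every line. Neither mutant line was called, with K57N against WT at -0.11 (95% confidence interval -0.89 to 0.67). The K57N against F53S difference of this probe was more negative on slide 1 by -0.67. Slide 1 held 1 array per line, so this value is given as a description. For K57N against F53S, the line by slide term passed 0.05 in that direction for 16.2% of all genes and in the other for 7.89%. The term carries no spread of slide 1, and nothing is read from it for AMOTL1. The second probe, whose ends lie at chr11:94554977 and 94563264 and so further apart than its 60 bases, ranged from -1.45 to -1.04 over the 9 arrays, was higher on slide 2 in every line (by 0.10, 0.38 and 0.20) and gave -0.10 for K57N against WT, so that neither probe showed a difference larger than its spread.

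LATS2, the kinase that phosphorylates YAP1 and is itself a YAP1 target, varied between slides and not detectably between lines. From a probe at chr13:21547929-21547988 (hg19), its levels were -2.11, -1.25 and -1.36 in WT cells, -2.34, -1.28 and -0.73 in F53S cells and -1.80, -1.53 and -1.43 in K57N cells. The groups overlapped, with a log2 fold change of -0.01 for K57N against WT (95% confidence interval -0.94 to 0.91).

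AXL encodes a receptor tyrosine kinase of the TAM family that responds to the ligand GAS6 and is a YAP1 target in several cancers. AXL levels, at chr19:41767395-41767454 (hg19), were -0.14, -0.77 and -0.86 in WT cells, 0.22, -1.20 and -0.97 in F53S cells and -0.36, -1.09 and -0.84 in K57N cells. It was higher on slide 1 in every line, and the lines overlapped. K57N against WT was -0.17 (95% confidence interval -1.08 to 0.73).

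YAP1 and TEAD1 themselves, the coactivator and a DNA-binding partner, were clearly above background throughout. YAP1 levels (probe at chr11:102100584-102100643, hg19, averaged over 10 spots per array) were 1.19, 1.43 and 1.29 in WT cells, 1.15, 1.47 and 1.42 in F53S cells and 0.86, 1.28 and 1.31 in K57N cells. Their SD in WT cells, 0.118, was the smallest of the 10 representative probes. The difference of K57N from WT was -0.16 (95% confidence interval -0.58 to 0.26, limma adjusted p = 0.893), so a 2-fold change of YAP1 RNA in either direction lay outside the interval.

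TEAD1 levels (probe at chr11:12965225-12965284, hg19) were 2.11, 2.91 and 2.78 in WT cells, 1.65, 2.62 and 2.65 in F53S cells and 1.98, 2.57 and 2.49 in K57N cells. All slide 1 values were below all slide 2 values, whatever the line. K57N against WT was -0.25 (95% confidence interval -1.03 to 0.52). On slide 2 alone it was -0.31 (limma adjusted p = 0.0422), below 2-fold and hence not called. Protein level, phosphorylation and nuclear entry of YAP1 are not measured by these arrays. In such bulk RNA, fewer cells expressing a gene and less RNA per cell cannot be told apart.

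**Figure D3:**
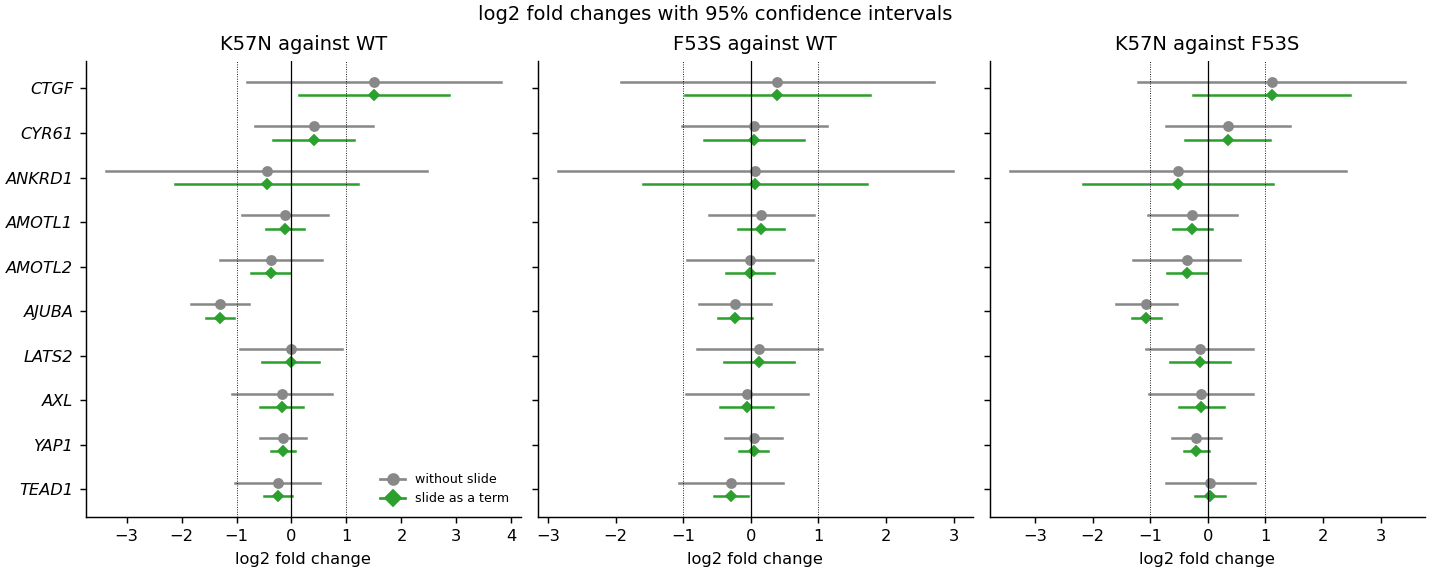
Log2 fold changes of the 10 genes in the 3 comparisons of lines. Points are estimates and lines 95% confidence intervals from limma, in grey without slide and in green with slide as a term, and dotted lines mark 2-fold. AJUBA is the only gene whose K57N against WT interval without slide stays clear of 0 (-1.83 to -0.77), and the CTGF and ANKRD1 intervals are the widest.

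In F53S cells no member was called against WT by limma, either way, beside 0% of all genes, and 0 members passed an unadjusted p below 0.05. The log2 fold changes ran from -0.29 (TEAD1) to 0.39 (CTGF), with a median of 0.05 beside 0.01 over all genes. On no member were the F53S arrays apart from the WT arrays, as 1.54% (higher) and 1.61% (lower) of all genes were, and on slide 2 alone 0 members were called beside 0.0104% higher and 0% lower. The intervals were wide for some genes, from -1.92 to 2.70 for CTGF and from -2.86 to 2.99 for ANKRD1, so a change of 2-fold lay within them. For YAP1 the interval was -0.38 to 0.46. Setting the mutants against each other, limma called 0 members in K57N against F53S cells, beside 0.951% higher and 0.25% lower of all genes, and AJUBA alone had an unadjusted p below 0.05. This comparison and that of K57N with WT share the K57N arrays. CTGF stood at 1.11 (95% confidence interval -1.21 to 3.42) and CYR61 at 0.35 (-0.72 to 1.42).

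A list of 16 further genes reported as YAP and TEAD targets was set beside the 10. Of the 13 tested (CRIM1, TGFB2 and RBMS3 were too dim), NT5E passed the filter on dim probes through K57N cells alone and is described apart. Of the other 12, limma called 1 higher and 1 lower in K57N against WT cells, beside 1.52% and 0.749% of all genes. It called 0 in F53S against WT, beside 0% of all genes, and 0 in K57N against F53S, beside 0.951% higher and 0.25% lower. The median log2 fold change of the 12 for K57N against WT was 0.56, beside -0.06 over all genes, and 8 were positive. With slide as a term, 3 were called higher and 1 lower, beside 2.56% and 1.98% of all genes. Disregarding fold, 7 rose and 3 fell there, beside 8.57% and 10.8%. Against F53S cells, the fit with slide as a term called 2 higher and 0 lower, beside 1.88% and 1.11% of all genes.

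NT5E, the cell surface enzyme CD73 that makes adenosine from AMP, was highest in K57N cells on every array. Its levels (probe at chr6:86204891-86204950, hg19) were -5.52, -5.58 and -5.13 in WT cells, -5.87, -4.69 and -4.51 in F53S cells and -1.06, -0.96 and -0.93 in K57N cells. No WT array held it clearly above background, and K57N cells were at least 13.6-fold higher than WT. The filter required it to be higher in K57N cells to be kept, so its size is a description. A second probe of NT5E was at background on every WT and F53S array, and K57N cells were at least 4.37-fold higher than WT by it. Against F53S cells, where the slide 1 array was at background, K57N cells were higher by at least 3.34 on the log2 scale with that value raised to the floor.

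F3, tissue factor, the cell surface starter of blood clotting, rose in K57N cells. F3 levels (probe at chr1:94995080-94995139, hg19) were -2.34, -1.81 and -1.87 in WT cells, -2.38, -1.66 and -1.58 in F53S cells and -0.64, -0.62 and -0.63 in K57N cells. The K57N arrays were nearly equal and above all others, with a log2 fold change against WT of 1.38 (SE 0.246, limma adjusted p = 0.0258). ARHGEF17, a guanine nucleotide exchange factor, fell, with levels (probe at chr11:73079944-73080003, hg19) of 3.13, 2.76 and 2.66 in WT cells, 3.08, 2.46 and 2.59 in F53S cells and 1.82, 1.75 and 1.75 in K57N cells. Its log2 fold change was -1.07 (SE 0.209, adjusted p = 0.0365). The call of F3 was lost without any 1 WT or K57N array (adjusted p from 0.0726 to 0.11), and that of ARHGEF17 without any array but F53S replicate 1 (0.0564 to 0.148). With slide as a term both held, at 0.00105 and 0.00112. MYOF, a membrane repair protein, had a log2 fold change of 1.59 and was not called without slide as a term (adjusted p = 0.0785) but was with it (0.000245), as was IGFBP3, an insulin-like growth factor binding protein, at 1.03 (0.111 and 0.00254).

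**Figure D4:**
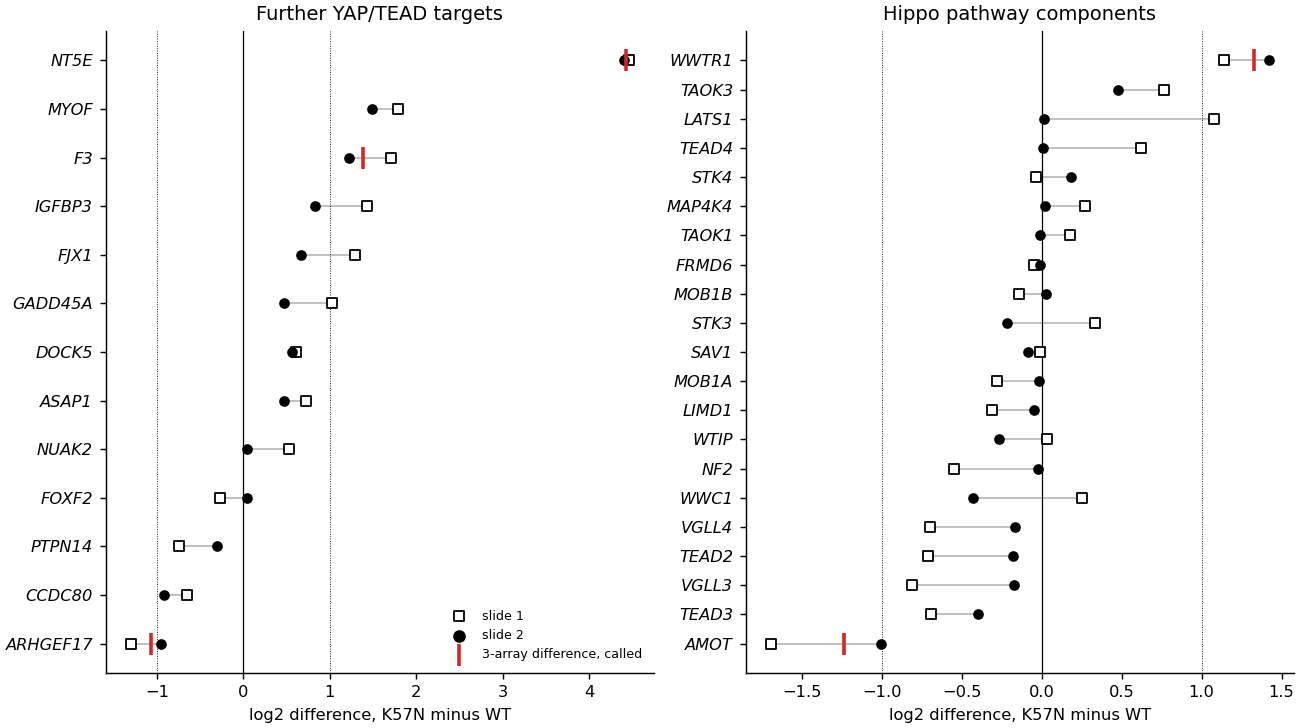
K57N minus WT difference of further targets and of Hippo components on each slide. The horizontal axes give log2 differences, open squares for slide 1 and filled circles for slide 2, and red bars mark the 3-array difference of the genes called by limma. NT5E was at background on every WT array, and its points take those values as measured (bounds at least 2.81 on slide 1 and at least 4.24 on slide 2). NT5E, MYOF (1.78 and 1.49), F3 (1.70 and 1.22) and WWTR1 (1.14 and 1.42) lie over 2-fold above 0 on both slides. AMOT lies over 2-fold below 0 on both (-1.70 and -1.01).

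Among 23 upstream components and cofactors of the Hippo pathway, 21 were tested (VGLL1 and VGLL2 were too dim). In K57N against WT cells limma called 1 higher and 1 lower, beside 1.52% and 0.749% of all genes, and the same 2 genes were called against F53S cells, beside 0.951% and 0.25%. None was called in F53S against WT. The median log2 fold change of the 21 was -0.06, like that over all genes, and most components, including the kinases STK3, STK4 and LATS1 and the tumour suppressor NF2, were not called.

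WWTR1, which encodes TAZ, the paralogue of YAP1, rose in K57N cells. Its levels (probe at chr3:149238593-149238652, hg19) were -1.56, -2.16 and -2.04 in WT cells, -1.48, -2.03 and -1.76 in F53S cells and -0.42, -0.70 and -0.66 in K57N cells. All K57N arrays were above all others, with log2 fold changes of 1.33 against WT (SE 0.219, limma adjusted p = 0.018) and 1.17 against F53S (adjusted p = 0.0473). The call against WT was lost without WT replicate 2 or 3 or any 1 K57N array (adjusted p from 0.0699 to 0.0936), and with normexp background correction (0.11). The call against F53S was lost in 7 of the 9 fits without 1 array, all but those without WT or F53S replicate 1 (0.0801 to 0.191). A second WWTR1 probe was at background on every array.

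AMOT, which encodes angiomotin, the founding member of the family of AMOTL1 and AMOTL2, fell in K57N cells. AMOT levels (probe at chrX:112018514-112018573, hg19) were 0.55, 0.50 and 0.50 in WT cells, 0.18, 0.46 and 0.58 in F53S cells and -1.15, -0.49 and -0.52 in K57N cells. K57N cells differed by -1.24 from WT cells (SE 0.213, limma adjusted p = 0.0221) and by -1.13 from F53S cells (adjusted p = 0.0485). The call against WT was lost without any 1 WT array or without K57N replicate 2 or 3 (adjusted p from 0.0588 to 0.0971), and that against F53S in all 9 such fits (0.0572 to 0.204). The other 2 components were named for their size of change, TAOK3 at 0.57 (adjusted p = 0.169) and TEAD3 at -0.50 (adjusted p = 0.643), and neither was called. With slide as a term, WWTR1 and AMOT were called in both comparisons, and against WT their adjusted p was 0.000291 and 0.00138.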

How the data were processed

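Agilent SurePrint G3 Human GE 8x60K v2 arrays were scanned and quantified by the authors with Feature Extraction 10.10.1.1, which gave a background-subtracted processed intensity per spot in the deposited scanner files. The deposited log2 table held the same log2 values less a constant per array (99.4% of 50598 probes within 0.02, column medians -3.851 to -3.411), its centring being unstated, and served as an alternative. Here log2 processed intensity minus the array's 75th percentile was used. Control and flagged spots were left out, and spots of one probe were averaged. A gene was represented by its brightest probe, positions (hg19) being per the file headers. Probes well above background on all 3 arrays of a line were tested (25425), with limma 3.58.1 in R 4.3.3, one mean per line without a block, and Benjamini-Hochberg adjustment. The number of arrays limits the precision.

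Same-numbered arrays deviated together from their line means (r from 0.350 to 0.880). They also shared a slide, and pairing by number beyond the slide was not tested. The median SE of a log2 difference was 0.288, and 0.136 with slide as a term. Alternatives were normexp background (offset 50), quantile normalization, other filters on dim probes, averaging a gene's probes, 2-line fits, slide and replicate blocks, slide 2 alone, the deposited table, the methods' t-test and leaving out each array. Settings were tested on simulated data. The members and lists were chosen with earlier results of these data known. Named were all members and their probes, MAP2K1, every called gene of the other lists, the 4 genes per list that changed most, and the 3 genes most like CTGF and CYR61. IGFBP3, STK3, STK4, LATS1 and NF2 were named after their values were seen. One of the HEK293 markers is not reported here.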

Additional observations from a re-analysis of the deposited data

Results flagged for a closer look

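The difference of K57N from WT cells was larger on slide 1 than on slide 2 by 3.15 for CTGF, 1.57 for CYR61 and 3.72 for ANKRD1 on the log2 scale. A line by slide term in limma was added after this was seen. Slide 1 held 1 array per line, so the term carries no spread of slide 1 and is no check of these differences. No p of the term is therefore given for the members. The difference of K57N from F53S cells was larger on slide 1 by 2.57, 1.45 and 3.39 for the same genes. ANKRD1 passed the filter through K57N cells alone, which required a K57N signal above background on slide 1. Its values take slide 1 signals at background as measured, and raised to the floor they were at least 3.51 and at least 3.36. For AMOTL1 the difference of K57N from F53S cells was -0.713 on slide 1 and -0.045 on slide 2. It was thus more negative on slide 1, and slide 1 minus slide 2 was -0.668. The term passed in that direction for 16.2% of all genes, and nothing is read from it for AMOTL1. The K57N arrays enter both comparisons. On slide 1 the K57N array was the brightest and WT and F53S arrays held ANKRD1 at background, and the part of brightness in these differences was not tested.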

How the results depend on the processing

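AJUBA kept its direction in every alternative run, and no member was called higher in any of them. With the slide block, 2.56% of all genes were called higher and 1.98% lower against WT, and 1.88% and 1.11% against F53S. Shares of all genes were computed only for the main fit, the slide block and slide 2 alone. Counts under other settings have no such share beside them, and nothing is read from their rise or fall. Members called lower in K57N against WT cells (1) became 2 on slide 2 alone and 0 under normexp, with no filter on dim probes, in the fit of only the 2 lines and with the adjusted methods' t-test, and ranged from 0 to 1 without 1 array. Against F53S cells (0) they became 2 on slide 2 alone and 1 with the slide or replicate block and the unadjusted t-test. The line by slide term has no slide 1 spread, so no count of members passing it is given. The larger K57N against WT difference on slide 1 of CTGF, CYR61 and ANKRD1 kept its direction under normexp and quantile normalization. It also did so with no filter, with the deposited table and with dim values raised to the floor. Under normexp it was smaller for CTGF and ANKRD1 than in the main setting. For ANKRD1 the filter favoured this direction.

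Further targets called higher in K57N against WT cells (2, with NT5E, which the filter favoured) became 4 with either block and the unadjusted t-test, 1 with the adjusted t-test, with no filter, under normexp and with probes above background on all 9 arrays, and 1 to 3 without 1 array. Those called lower (1) became 0 on slide 2 alone, with the adjusted t-test and with no filter, and 0 to 1 without 1 array. Against F53S cells those called higher (1, NT5E) became 3 with either block, on slide 2 alone and with the unadjusted t-test, and 0 with the adjusted t-test and with probes above background on all 9 arrays.

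The Hippo component called higher in K57N against WT cells (1) became 0 with the adjusted t-test, with no filter and under normexp, and the one called lower (1) became 0 with the adjusted t-test, with no filter and in the 2-line fit, each 0 to 1 without 1 array. Against F53S cells both counts (1 and 1) became 0 with those 4 settings and with probes above background on all 9 arrays, and the lower one also under quantile normalization and with the deposited table. Without 1 array they were 0 to 1 and 0.

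Same-numbered arrays shared a slide, and pairing by number beyond that was not tested. With the replicate block, members called lower stayed at 1 against WT (AJUBA, adjusted p = 0.00123) and became 1 against F53S (0.00428), further targets became 4 and 3 as given, and no other call count moved by over 1.5 times.

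On slide 2 alone the sign turned for CYR61 in K57N against WT (-0.12) and F53S (-0.13), ANKRD1 in F53S against WT (-0.044), AMOTL1 in K57N against WT (0.049), AXL and TEAD1 in K57N against F53S (0.12 and -0.10) and AMOT in F53S against WT (0.024). LATS2 in K57N against WT turned to 0.045 under quantile normalization and 0.018 with the deposited table. In fits without 1 array the sign of other uncalled log2 fold changes turned. Their range in F53S against WT was, by gene, CTGF -0.72 to 1.31, CYR61 -0.42 to 0.48, ANKRD1 -1.28 to 1.31, AMOTL1 -0.18 to 0.43, AMOTL2 -0.39 to 0.35, LATS2 -0.23 to 0.57, AXL -0.50 to 0.22, YAP1 -0.022 to 0.14, TEAD1 -0.54 to 0.034, F3 -0.034 to 0.38, ARHGEF17 -0.32 to 0.0017, AMOT -0.19 to 0.0073, MYOF -0.11 to 0.56, TAOK3 -0.045 to 0.22 and TEAD3 -0.30 to 0.25. Their range in K57N against WT was, by gene, CYR61 -0.072 to 0.70, ANKRD1 -1.80 to 0.24, AMOTL1 -0.28 to 0.16, LATS2 -0.28 to 0.15 and AXL -0.37 to 0.052. Their range in K57N against F53S was, by gene, CYR61 -0.083 to 0.64, ANKRD1 -1.76 to 0.21, AMOTL1 -0.48 to 0.070, LATS2 -0.58 to 0.22, AXL -0.39 to 0.32 and TEAD1 -0.29 to 0.23. The cause was not tested. The 3 arrays per line and the dim slide 1 arrays, on which ANKRD1 was at background in WT and F53S cells, limit what can be seen.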

Other observations

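The genes whose levels over the 9 arrays were most like CTGF, after each slide's mean was subtracted, were COG6 (Pearson r = 0.996), HTATSF1 (r = 0.996) and SRPK1 (r = 0.994), out of 16994 candidates. Those most like CYR61 were FAM169A (r = 0.989), HMGCS1 (r = 0.988) and LOC100653296 (r = 0.986). Without subtracting slide means r was 0.939 to 0.993 for the CTGF genes, 0.970 for FAM169A and 0.933 for HMGCS1, but 0.283 for LOC100653296, whose levels were -1.36 to -1.28 apart from -0.99 on the slide 1 array of K57N cells. The points share arrays, slides and brightness, so these values describe the 9 arrays. COG6, a Golgi complex subunit, stood at 0.26, 1.18 and 1.12 in WT cells, 0.40, 1.17 and 1.22 in F53S cells and 0.995, 1.26 and 1.24 in K57N cells, with the 2 low arrays being slide 1 of WT and F53S, as in CTGF. HMGCS1, an enzyme of cholesterol synthesis, stood at 0.82, 2.30 and 2.27, at 0.93, 2.26 and 2.37 and at 1.70, 2.20 and 2.20 in the same order. None of the 6 was called in K57N against WT cells by limma (adjusted p from 0.838 to 0.974).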
